A study of Saccharomyces cerevisiae with 7 samples.

Results

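The mRNAs of 7 genes that act in cell fate and signalling in *Saccharomyces cerevisiae* were followed through the binding sites of 5 Puf (Pumilio) proteins: *HO* (YDL227C), *ASH1* (YKL185W), *STE7* (YDL159W), *TEC1* (YBR083W), *LRG1* (YDL240W), *RAX2* (YLR084C) and *IXR1* (YKL032C). They were chosen by locus name as known or strong targets of Puf5 or its relatives, so their Puf5 values served in the choice and are given here as a description, with no test. Of 10580 called sites in the 5 libraries, 13 carried the name of a member: 9 of 3361 in Puf5, 2 of 3002 in Puf4, 2 of 1949 in Puf2, 0 of 899 in Puf1 and 0 of 1369 in Puf6. *HO* had no called site in any library, so 6 of the 7 members, against 42.1% of all genes, are described by their sites.

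Each site list came from 1 CLIP (crosslinking and immunoprecipitation) library of a strain of mating type a, *his3Δ1* and *leu2Δ0* as well as *met15Δ0* and *ura3Δ0*, in which a TAP tag with the HIS5 marker was fused to PUF5, PUF4, PUF2, PUF1 or PUF6. Cells grew at 30 °C in synthetic defined medium, were labelled with 200 µM 4-thiouracil and received 365 nm light 4 times at 150 mJ/cm2, and lysates were cut with RNase T1. mRNA levels came from 1 deposited RPKM column (a level scaled to gene length and library depth) for 2 samples of BY4742 with *puf3* replaced by KAN, a strain of mating type alpha. With 1 library for each protein no difference between libraries had a replicate check, and no untagged control library was used here.

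Puf4 and Puf5 bind short RNA elements that begin with UGUA, known mainly from 3' untranslated regions (UTRs). They bring the deadenylase complex and the helicase Dhh1 to the mRNA, which lowers its translation and stability. Puf5, also called Mpt5, is known for its part in mating type switching, recovery from pheromone, filamentous growth and the integrity of the cell wall. Puf4 acts beside Puf5 on *HO*, and Puf6 is known as a translational repressor of *ASH1* during its transport to the bud.

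Site strength is given in RPM, reads scaled to library depth, as deposited. RPM of mRNA sites lay mostly on whole steps, which gave the value of 1 read as 0.195 RPM in Puf5, 0.245 RPM in Puf4 and 0.328 RPM in Puf2. All 10 member sites under 300 RPM were whole numbers of reads within 0.0065 RPM. Reads implied in this way gave exact Poisson 95% intervals, which cover counting error only. At these steps, a site of 100.2 RPM in Puf5 stood for 513 reads. A protein-coding gene is called bound when at least 1 site in its coding sequence, an intron or a UTR carries its name, and its strength is the RPM of its strongest such site.

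Puf5 sites were called in 6 of the 7 members, against 25.0% of a background of 5521 genes, all those that code for protein and reach 1 RPKM. Since Puf5 binding served in the choice, nothing is read from that count. Puf4 sites were called in *IXR1* and *LRG1*, 2 of 7, against 19.7% of all genes. Puf2 sites were called in *ASH1* and *TEC1*, 2 of 7, against 11.7% of all genes. Puf1 and Puf6 had no site in any member, where 5.81% and 6.34% of all genes had one. *STE7* and *RAX2* had sites of Puf5 alone, as did 11.8% of all genes. *IXR1* and *LRG1* had sites of Puf5 and Puf4 and no other, as did 3.82% of all genes, and *ASH1* and *TEC1* had sites of Puf5 and Puf2 and no other, as did 1.72% of all genes.

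**Figure D1:**
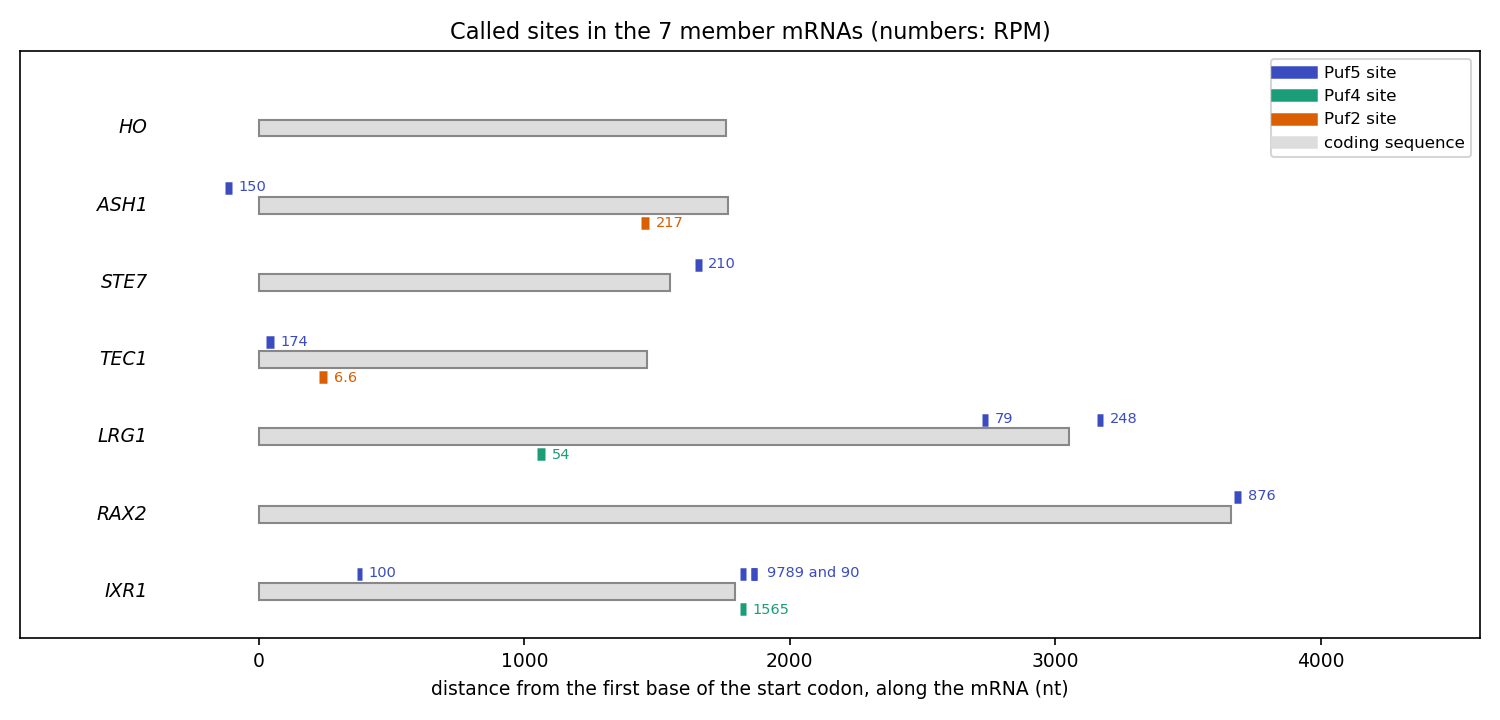
The coding sequences of the 7 members (grey bars, nt from the first base of the start codon along the mRNA) with Puf5 sites above them and Puf4 or Puf2 sites below; numbers beside the sites are RPM. Strong Puf5 sites of RAX2 and IXR1 start 10 and 18 nt past the stop codon, the Puf4 site of IXR1 lies under its Puf5 site, and HO has no site.

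*HO* encodes the endonuclease that starts mating type switching by cutting the mating type locus. Its coding sequence lies on chromosome IV from 46271 to 48031, minus strand (sacCer3). The mRNA was not scarce in the RNA-seq data: its level was 94.4 RPKM, above 66.1% of the 5521 genes. Among the 551 genes of like mRNA level (78.6 to 107 RPKM, 1 of 10 bins of equal size), 143 had a Puf5 site, 25.95%, and 293 had no site of any protein, 53.2%. The weakest mRNA site listed in Puf5 had 5.08 RPM, and how far below this the *HO* mRNA may have been bound is not shown by a list of called sites. Within 1000 nt of the coding sequence 10 sites were called, none of them on the strand of *HO*. All 10 carried the name of *SSB1*, a ribosome-associated chaperone gene that converges on *HO*. The strongest of these in Puf5 had 1622 RPM and ended 271 nt from the last base of the *HO* coding sequence, on the opposite strand.

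*ASH1* encodes the daughter-cell repressor of *HO*, and its mRNA is carried to the bud tip. It was the most abundant of the 7 mRNAs, with 162 RPKM, above 79.3% of all genes. Puf5 had 1 site in *ASH1*, in the 5' UTR (chromosome XI, 94371 to 94396, plus strand), with 149.6 RPM (95% interval 139 to 161). It ended 102 nt before the start codon, close to the median of 106 nt over the 186 Puf5 sites that lay ahead of a start codon in a 5' UTR. Its RPM was 1.37 times the median of Puf5 5' UTR sites. Puf2 had 1 site in *ASH1*, in the coding sequence (95937 to 95968), with 217 RPM (201 to 234), starting 1438 nt past the first base of the start codon, 81.4% along the coding sequence. The sites were 1540 nt apart. No Puf6 site and no 3' UTR site of any library carried the name of *ASH1*. Of all genes, 6.34% had a Puf6 site and 1.49% had one in the 3' UTR. As for *HO*, a list of called sites does not show weaker binding.

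*STE7* encodes the MAP kinase kinase shared by the pheromone and filamentation pathways. It was the least abundant member, with 10.6 RPKM, above 8.39% of all genes. Its only site was a Puf5 site in the 3' UTR (chromosome IV, 174125 to 174148, plus strand) with 209.6 RPM (197 to 223), starting 96 nt past the stop codon. In its bin of mRNA levels, 1.00 to 12.5 RPKM, 43 of 553 genes, 7.78%, had a Puf5 site, and *STE7* ranked 8 among those 43.

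*TEC1* encodes the transcription factor of filamentous growth, whose turnover the pheromone MAP kinase Fus3 controls. Its mRNA had 107 RPKM. Neither of its sites lay in a UTR. The Puf5 site (chromosome II, 409196 to 409226, plus strand) had 174 RPM (162 to 185) and started 27 nt past the first base of the start codon, and 23 of 694 Puf5 coding sites, 3.31%, started nearer to theirs. The Puf2 site (409395 to 409425) had 6.56 RPM (4.01 to 10.1), which stands for 20 reads, and began 168 nt past the end of the Puf5 site. It ranked 568 among the 601 coding sites of Puf2, and it was the weakest of the 13 member sites.

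*LRG1* encodes a GTPase-activating protein that turns off Rho1, the switch at the head of the cell wall integrity pathway. Its mRNA had 26.1 RPKM, above 21.9% of all genes. Puf5 had a 3' UTR site (chromosome IV, 25981 to 26003, plus strand) with 248 RPM (234 to 262), starting 104 nt past the stop codon. A Puf5 site in the coding sequence (25547 to 25570) had 79.3 RPM (71.8 to 87.4), so the 3' UTR site held 75.7% of the Puf5 RPM of *LRG1*. The Puf4 site (23872 to 23901) lay in the coding sequence, 34.3% along it, with 53.6 RPM (46.7 to 61.2), and was 1645 nt from the nearer Puf5 site.

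*RAX2* encodes a membrane protein that marks the cell poles for bipolar budding. Its mRNA had 27.3 RPKM, above 23.3% of all genes. Its single site was called in Puf5, within the 3' UTR (chromosome XII, 296551 to 296578, minus strand) with 876 RPM (851 to 902), 6.80 times the median of Puf5 3' UTR sites. It started 10 nt past the stop codon, and 6.45% of the Puf5 3' UTR sites that lay past a stop codon were nearer to theirs. Among the 94 Puf5-bound genes in its bin of mRNA levels, *RAX2* ranked 4.

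*IXR1* encodes an HMG-domain transcription factor that acts in the response to low oxygen and in the control of ribonucleotide reductase. Its mRNA had 68.8 RPKM, above 55.2% of all genes, so its level was near the middle. Puf5 had 3 sites in *IXR1*. The strongest, in the 3' UTR 18 nt past the stop codon (chromosome XI, 380023 to 380046, minus strand), had 9789 RPM (9703 to 9875), about 50109 reads. This was 76.04 times the median of Puf5 3' UTR sites and 97.7 times the next site of the gene. The other sites were a second one in the 3' UTR (379984 to 380003) with 90.45 RPM (82.4 to 99.1) and one in the coding sequence (381470 to 381490) with 100.2 RPM (91.7 to 109). The strongest site held 98.1% of the Puf5 RPM of *IXR1*. Among the 122 Puf5-bound genes in its bin of mRNA levels *IXR1* ranked 1, and its Puf4 strength ranked 2 among 75.

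Across the members, sites fell into 6 in the 3' UTR, 6 in the coding sequence and 1 in the 5' UTR. In Puf5 these were 5, 3 and 1, and over all Puf5 mRNA sites 58.97% lay in 3' UTRs, 31.3% in coding sequences and 9.32% in 5' UTRs. Of the 7 members, 4 had a Puf5 site in the 3' UTR (*IXR1*, *RAX2*, *LRG1* and *STE7*), against 17.3% of all genes, and *IXR1* had one of Puf4, against 8.35% of all genes. No member had a 3' UTR site of Puf2, Puf1 or Puf6, against 4.64%, 2.70% and 1.49% of all genes. The 5 Puf5 sites in 3' UTRs started 10 to 104 nt past the stop codon, with a median of 61 nt, against a median of 67 nt over the 1271 such Puf5 sites of all genes. Member sites were 20 to 32 nt long, with a median of 24 nt, against medians of 22 nt for Puf5, 28 nt for Puf4 and 27 nt for Puf2 mRNA sites.

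Ranks among bound genes showed how far the members differed from each other. In Puf5, with 1416 bound genes, *IXR1* ranked 4, *RAX2* 87, *LRG1* 299, *STE7* 369, *TEC1* 424 and *ASH1* 484. Their RPM intervals from counting did not overlap, but no replicate shows how the order would vary between libraries. Strengths in the middle of the Puf5 list were close together: the median bound gene had 126 RPM, and the 25th and 75th percentiles were 97.2 and 219 RPM. *ASH1*, *TEC1* and *STE7* lay within that range, and the ends of the counting interval of *ASH1* alone corresponded to ranks of 454 to 561. *IXR1*, *RAX2* and *LRG1* lay above it. Directly above *IXR1* stood the cell wall gene *SUN4* with 9799.8 RPM, which lay inside the counting interval of *IXR1*, and directly below it the histone H4 gene *HHF2* with 8615 RPM. *ASH1*, the weakest member with a Puf5 site, stood between *AIM33* with 149.8 RPM and the cell wall gene *TIP1* with 148.7 RPM.

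In Puf4, *IXR1* ranked 80 of 1099 bound genes and *LRG1* ranked 924. In Puf2, *ASH1* ranked 363 and *TEC1* 631 of 659. *IXR1* was thus within the top 7.28% of Puf4, and the other three lay below the middle of their list.

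**Figure D2:**
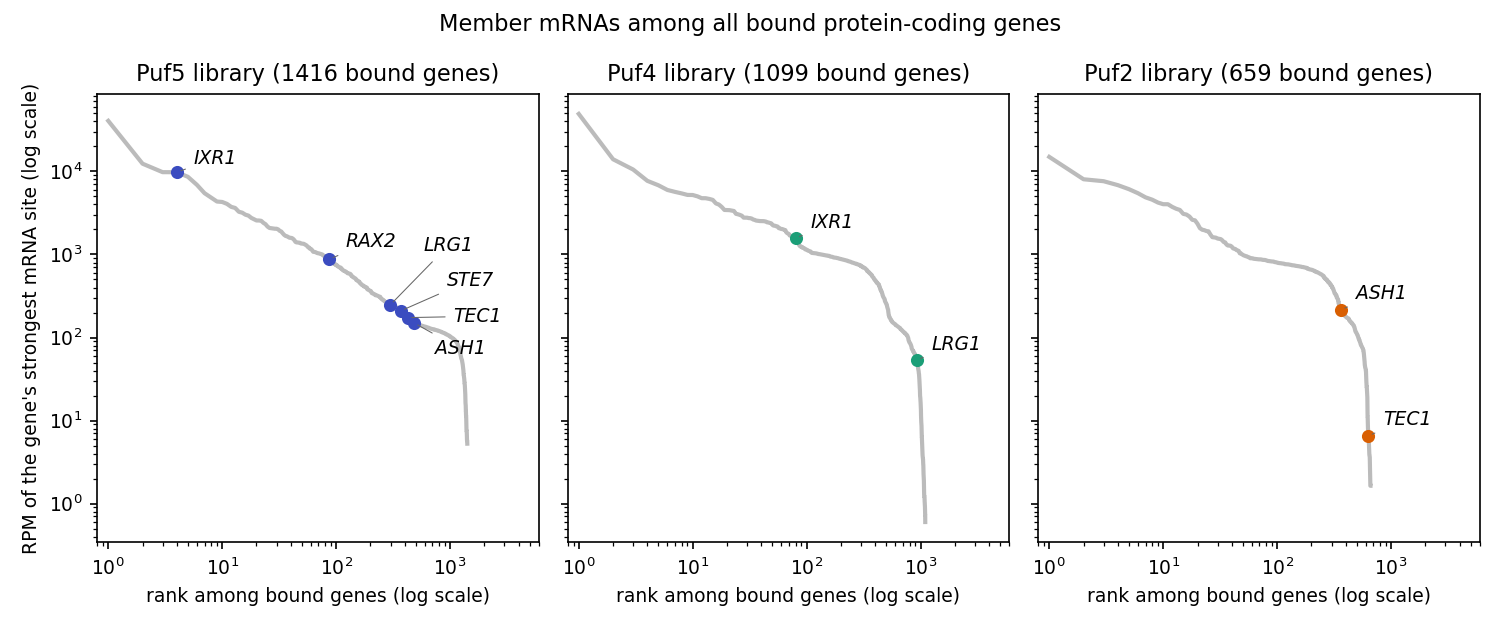
RPM of the strongest mRNA site (y, log scale) against rank among bound protein-coding genes (x, log scale) in the Puf5, Puf4 and Puf2 libraries; grey curves are all bound genes and coloured points the members. IXR1 is at rank 4 in Puf5 and at rank 80 in Puf4, while ASH1, TEC1, STE7 and LRG1 sit between 149.6 and 248 RPM in Puf5.

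Site strength was next set beside mRNA level, as log2 of (RPM + 1)/(RPKM + 1) with a pseudocount of 1. The RPKM came from a strain of the other mating type with *puf3* deleted, so it stands only approximately for the CLIP strains. Over 1378 genes that had a Puf5 site and reached 1 RPKM the median of this log2 value was 0.23. *IXR1* had 7.13 and ranked 4, *RAX2* had 4.95 and ranked 25, *STE7* had 4.18 and ranked 40, and *LRG1* had 3.20 and ranked 93. *TEC1* had 0.69 and ranked 560, and *ASH1* had -0.11 and ranked 781. The order of *STE7* and *LRG1* was thus the reverse of that by RPM. In Puf4, *IXR1* had 4.49 and ranked 40 of 1089, and *LRG1* had 1.01 and ranked 438. In Puf2, *ASH1* had 0.42 and ranked 301 of 648, and *TEC1* had -3.84 and ranked 601. Ahead of *IXR1* in Puf5 stood *MFA2*, *MFA1* and *LYS1*, whose mRNA levels in the RNA-seq strain were 1.11, 1.35 and 1.31 RPKM. *MFA1* and *MFA2* encode the pheromone of the a mating type, which the RNA-seq strain does not make. With an RPKM of at least 10 required, *IXR1* ranked 1 of 1344, and with no RPKM filter it ranked 11 of 1392.

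**Figure D3:**
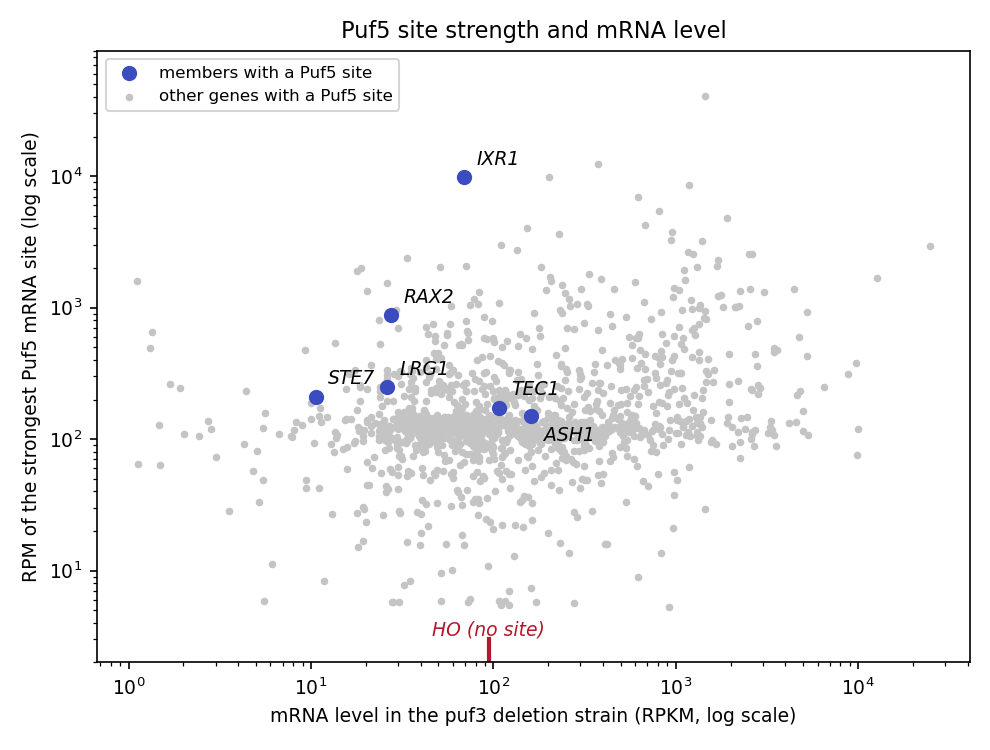
RPM of the strongest Puf5 mRNA site (y, log scale) against mRNA level in the puf3 deletion strain (x, RPKM, log scale) for genes with a Puf5 site and an RPKM of at least 1; blue points are the members and the red mark gives the level of HO, which has no site. IXR1 combines 68.8 RPKM with 9789 RPM, and STE7 combines 10.6 RPKM with 209.6 RPM.

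*IXR1* gave the only overlap of sites of 2 proteins in a member. Its Puf4 site in the 3' UTR had 1565 RPM (1527 to 1604) and the same first and last base as the strongest Puf5 site. The Puf5 value was 6.25 times the Puf4 value (6.09 to 6.42 from counting alone). Among 2230 Puf5 and 1773 Puf4 mRNA sites of protein-coding genes, 34 had identical bounds in both libraries, 1.52% of the Puf5 and 1.92% of the Puf4 sites. Sites that overlap with shifted bounds are not among the 34, as in *NHP6A* (665558 to 665581 in Puf4, 665559 to 665582 in Puf5). Sharing is thus more common than these percentages. The share of all genes with any overlap was not counted, so whether the overlap in *IXR1* is usual for a bound gene cannot be told. Of these 34, the *IXR1* site had the highest Puf5 RPM, ranked 8 by Puf4 RPM and ranked 5 by the Puf5 to Puf4 ratio, which had a median of 0.418 and exceeded 1 at 11 sites. Both lysates were cut with RNase T1, which cleaves after G, and the part this has in the shared ends was not tested. RPM of the libraries is scaled to each library's own reads, so the ratio compares shares of reads.

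**Figure D4:**
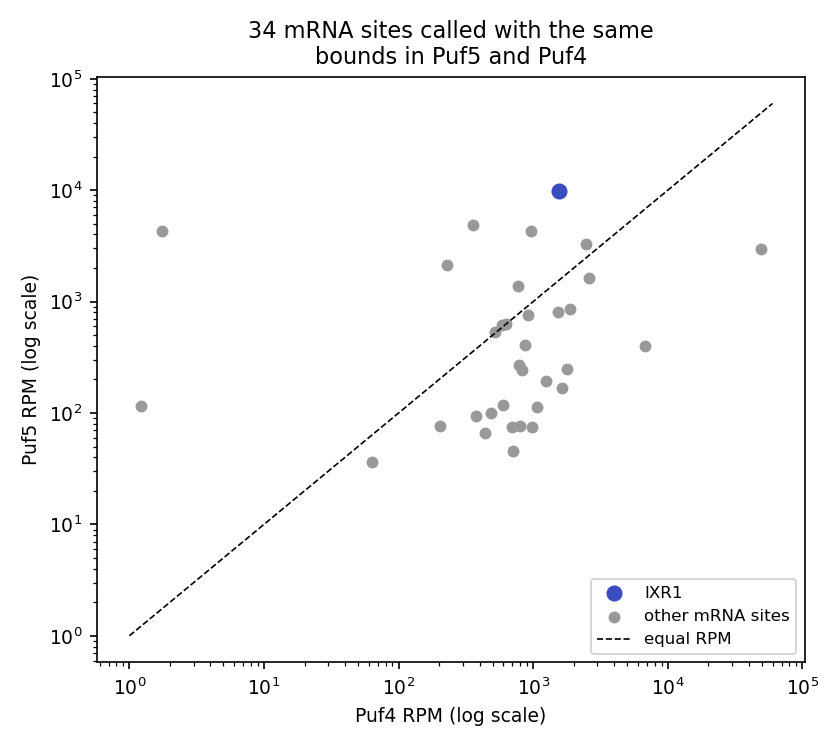
Puf5 RPM (y, log scale) against Puf4 RPM (x, log scale) of the 34 mRNA sites called with identical bounds in both libraries; the dashed line marks equal RPM. The IXR1 site (blue) has 9789 RPM in Puf5 and 1565 RPM in Puf4, and most other sites lie below the line.

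For each member the 3 genes most like it were found by the mean absolute difference of log2(RPM + 1) of the strongest site over the 5 libraries. *STE7*, with Puf5 alone, was most like *FUS1* (210.04 RPM), a cell fusion gene induced by pheromone, then *UPC2* (208 RPM), a sterol regulator, and *TOA2* (213 RPM), a subunit of TFIIA, with differences of at most 0.0040. *RAX2* was most like *YLR108C* (801 RPM), *RKI1* (791 RPM) and *SWR1* (748 RPM), also bound by Puf5 alone. For *STE7* and *RAX2* likeness thus rests on Puf5 RPM only, and 653 of the 5521 background genes had Puf5 alone. Such a match does not speak to a shared pathway. *ASH1* was most like *PRY1*, *QCR6* and *CHL1*, with 118 to 143 RPM in Puf5 and 205 to 237 RPM in Puf2. *TEC1* was most like *COX15* (185 RPM in Puf5 and 6.24 RPM in Puf2), *YDR341C* and *MGA1*. *LRG1* was most like *OPY1* (275 RPM in Puf5 and 51.9 RPM in Puf4), *PHO3* and *WAR1*. *IXR1* had no close match: *SAM2*, a methionine metabolism gene with 2759 RPM in Puf5 and 1138 RPM in Puf4, was nearest with a mean difference of 0.46, and the histone H3 gene *HHT1* and the cell wall gene *UTR2* followed with 0.53 and 0.60.

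The pathways of the members were then described through 5 lists set by gene name, beside a list of other mRNAs known as Puf5 targets. All lists were chosen with earlier results of these data known, so their shares are a description only. Leaving out the members, the 5 pathway lists held 81 background genes, of which 30 had a Puf5 site (37.0%, against 25.0% of all genes), 16 a Puf4 site (19.8%, against 19.7%), 13 a Puf2 site (16.05%, against 11.7%), 4 a Puf1 site (4.94%, against 5.81%) and 5 a Puf6 site (6.17%, against 6.34%).

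In pheromone and filamentation signalling, 8 of 22 genes had a Puf5 site, and 6 of 20 (30.0%, against 25.0% of all genes) without *STE7* and *TEC1*. *MSB2*, the mucin-like sensor of filamentous growth, was the strongest with 1171 RPM in the 3' UTR and also had 836 RPM in Puf4. *STE7* and *TEC1* followed, then the alpha-factor receptor gene *STE2* (157 RPM) and *STE12* (131 RPM), which encodes the transcription factor that pairs with Tec1. *SST2* (119 RPM), *STE11* (55.6 RPM) and *STE3* (13.7 RPM) were weaker. In Puf5, *STE11* ranked 1257 and *STE3* 1373 of 1416 bound genes. Genes of the G protein (*GPA1*, *STE4* and *STE18*), the scaffold *STE5* and the MAP kinases *FUS3* and *KSS1* had none in any library. The same held for *CDC42*, *STE20*, *STE50*, *FAR1* and *MSG5*. Over all genes, 42.1% had a site in any library, so having none was common. In this pathway Puf4 had sites in 3 genes and Puf2 in 4, among them *STE2* with 778 RPM. Without *STE7* and *TEC1* each had sites in 3 of 20 (15%, against 19.7% of all genes in Puf4 and 11.7% in Puf2). Puf6 also had sites in 3 of 20 (15%, against 6.34%), and Puf1 in 1 of 20 (5%, against 5.81%).

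In Rho1 and cell wall integrity signalling, none of 23 genes had a Puf1 or Puf6 site, where 5.81% and 6.34% of all genes had one. Without *LRG1*, Puf2 sites were called in 5 of 22 (22.7%, against 11.7% of all genes) and Puf4 sites in 3 of 22 (13.6%, against 19.7%). Puf5 sites were called in 12 of 23, and in 11 of 22 (50%, against 25.0% of all genes) without *LRG1*. The strongest was *SAC7*, which like *LRG1* encodes a GTPase-activating protein for Rho1, with 556 RPM in the 3' UTR. *LRG1* followed, then the kinase gene *MKK1* (154 RPM). *RHO1* itself had 100.2 RPM in Puf5 and 428 RPM in Puf2, while *PKC1*, the kinase below Rho1, had no site.

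Among 17 genes of mating type switching and daughter cell asymmetry, 4 had a Puf5 site and 4 a Puf4 site, near the shares of all genes. Without *HO* and *ASH1*, 3 of 15 had a Puf5 site (20%, against 25.0% of all genes). *KHD1*, which encodes another translational repressor of *ASH1* mRNA, was the strongest with 1284 RPM in Puf5, 898 RPM in Puf4 and 272 RPM in Puf2. *SDS3*, of the Rpd3 histone deacetylase complex, followed with 242 RPM in Puf5, ahead of *ASH1*. *MYO4*, the motor that carries *ASH1* mRNA, had 142 RPM in Puf5, and *SHE2* and *SHE3*, the adaptors, had no site. *SWI5*, which encodes an activator of *HO*, had none either.

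Of 14 bud site genes, 4 had a Puf5 site, and 3 of 13 (23.1%, against 25.0% of all genes) without *RAX2*. *RAX2* led, followed by *BUD9* (200.4 RPM), which encodes the bipolar landmark of the birth pole, and *BUD2* (150.4 RPM), a GTPase-activating protein for Rsr1. *RAX1*, whose product pairs with Rax2, had a Puf4 site of 6.12 RPM and no Puf5 site.

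Of 12 hypoxic and HMG-domain regulators in the background, 8 had a Puf5 site, each of these with one in the 3' UTR, and 4 had a Puf4 site. After *IXR1* came the HMG-box gene *NHP6A* (1036 RPM in Puf5 and 891 RPM in Puf4), *HMO1* (762 RPM in Puf5, 820 RPM in Puf4 and 2082 RPM in Puf1) and the corepressor gene *TUP1* (702 RPM in Puf5). The bound genes of this list had a median of 672 RPM in Puf5, against 126 RPM for all bound genes. The list holds *IXR1*, whose Puf5 value served in the choice. Without it 7 of 11 had a Puf5 site (63.6%, against 25.0% of all genes) and 3 of 11 a Puf4 site (27.3%, against 19.7%).

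A further list held 7 other mRNAs known as Puf5 targets, and 5 of them had a Puf5 site (71.4%, against 25.0% of all genes). The excess was not limited to Puf5: *DHH1*, *RHO1* and *TUP1* had a Puf2 site, 3 of 7 (42.9%, against 11.7%). *DHH1* also had a Puf6 site, 1 of 7 (14.3%, against 6.34%), and Puf4 and Puf1 had 0 of 7 (against 19.7% and 5.81%). *STE20*, *RHO1*, *PKC1* and *TUP1* also stand in the pathway lists, so the counts are not independent. *DHH1*, the helicase that acts with Puf5, had 11 Puf5 sites, the strongest of 4070 RPM in the 3' UTR (chromosome IV, 170283 to 170309, minus strand). *DHH1* lies head to head with *STE7*, and no site named for either gene overlapped the other. *TUP1* was next, then *SIR3* (131 RPM), *RHO1* and *CIN8* (96.9 RPM), while *STE20* and *PKC1* had no site. *HO* was thus not alone among mRNAs known as Puf5 targets in having no called site.

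**Figure D5:**
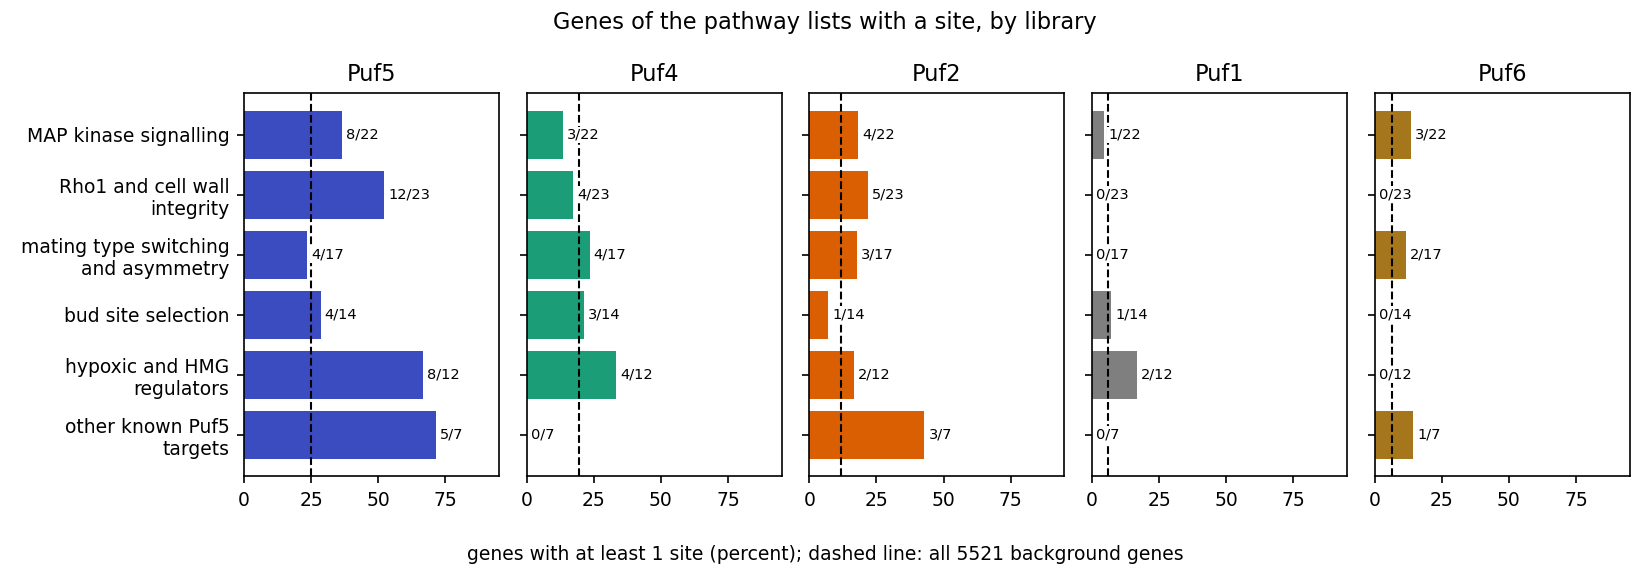
Share of genes with at least 1 mRNA site (x, percent) for the 5 pathway lists and the list of known Puf5 targets (rows) in each library (panels); numbers give genes with a site of genes in the list, members included, and the dashed line is the share of all 5521 genes. In Puf5 the hypoxic and HMG-domain list (8 of 12) and the Rho1 list (12 of 23) lie above the line at 25.0%, and mating type switching (4 of 17) lies near it.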

How the data were processed

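For each CLIP library the authors deposited called sites, each with bounds, strand, the name of a gene, a class of feature and RPM. For the 2 *puf3* deletion samples they deposited 1 RPKM column. CASAVA 1.8.2, Bowtie 0.12.7 and sacCer3 were named, per the submitters' processing notes. Not described were the site caller, its threshold, the source of UTRs, the treatment of reads with several places, and how the RNA-seq replicates were joined (not given in the sources used here). The same holds for whether positions count from 0 or 1, so distances are good to 1 nt.

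Gene symbols and coding bounds came from a RefSeq table of assembly R64, which matched 5893 of the 6550 genes in the RPKM table. Sites were assigned by their deposited name, and genes were ranked within a library, since RPM is scaled within it. The value of 1 read was taken as the step of which most mRNA site RPM under 300 were whole multiples (tolerance 0.0065 RPM): 82.7% in Puf5, 74.4% in Puf4 and 77.1% in Puf2. The search for this step was tested on simulated data. No test of significance was made, as each protein had 1 library. Members, gene lists and the rule for named genes (members, the 3 strongest Puf5 genes of each list, the 3 most alike genes, and rank neighbours) were chosen with earlier results of these data known, and other list genes were named after their values were seen. *ABF2* was listed at 0 RPKM and left out of its list. Alternatives were 3' UTR sites alone, the 50% of sites with the highest RPM, summed RPM, an overlap of 50%, a pseudocount of 0.1, and no RPKM filter or a minimum of 10. Python 3.11.15, pandas 2.3.3, NumPy 2.4.6 and SciPy 1.17.1 were used.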

Additional observations from a re-analysis of the deposited data

How the results depend on the processing

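Of the 39 values recomputed under an alternative, 16 moved past the limit set for them (a ratio of 1.5 for a count, the exact binomial 95% interval of its share for a rank) and 23 stayed within it. With 3' UTR sites alone, members with a site numbered 0 in Puf2 and 1 in Puf4, against 2 each with all mRNA sites, and 4 in Puf5, against 6. With the 50% of sites with the highest RPM they numbered 1 in Puf2 and 1 in Puf4. With RPM summed over a gene's sites, Puf5 ranks of 1416 were 634 for *ASH1*, 507 for *STE7*, 567 for *TEC1* and 117 for *RAX2*, which have 1 Puf5 site each, and *IXR1* ranked 7, against 4 by its strongest site. Among the 965 genes with a Puf5 site in the 3' UTR, *LRG1* ranked 261, *STE7* 325 and *RAX2* 82. For RPM per mRNA level, a minimum of 10 RPKM gave ranks of 66 for *LRG1*, 23 for *STE7*, 13 for *RAX2* and 1 for *IXR1*. It left out genes of low RPKM that had ranked ahead of them, such as *MFA2* (1.11 RPKM), *MFA1* (1.35 RPKM) and *LYS1* (1.31 RPKM). *STE7*, with 10.6 RPKM, only just passed this minimum. Without an RPKM filter *IXR1* ranked 11 of 1392. The search for Puf motifs in the sites was not run, because no genome sequence was used here. No paired analysis was possible because each protein has 1 library and the RNA-seq samples share 1 column. Leaving out a replicate was not possible for the same reason. The weakest member site, *TEC1* in Puf2, rested on about 20 implied reads.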
